A study of Sus scrofa with 32 samples.

Results

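SLC2A1 and SLC2A5 encode the sugar carriers GLUT1 and GLUT5, and each was read by 1 probe set of a porcine expression array in fetal liver. The probe sets were taken because the array annotation gives them one of these symbols and no other, and they stand for 2 of 6765 genes and are 2 of the 23999 probe sets that are not controls. Both passed the filter on dim signals and were among the 15327 probe sets tested. Liver RNA of Pietrain pig fetuses was hybridised to 32 arrays, 1 per sample, at 35, 63 and 91 days post coitum (dpc). The mothers were gilts (females in a first pregnancy) on a methyl-enriched gestation diet, which differed in micronutrients that supply methyl groups, or on a control diet. The labels do not list the micronutrients or their amounts, and they name no genetic change. At 35 dpc there were 5 methyl-diet and 5 control-diet arrays, at 63 dpc 6 and 6, and at 91 dpc 5 and 5. The design text speaks of 5 to 6 gilts per stage without saying whether this is per diet, and no label ties an array to a mother. Arrays may therefore share a mother, which would make the p-values too small, since these measure only the spread between arrays. The number of arrays limits the precision.

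GLUT1 carries glucose down its gradient across the membrane of many cell types, among them, in some species, red blood cells and their precursors. GLUT5 is the fructose carrier of the family, best known from the small intestine. The fetal pig has much fructose in its blood, made from glucose in the placenta, and its liver is also a site of red cell formation for much of gestation. The adult liver moves glucose mainly through another carrier, GLUT2, which SLC2A2 encodes.

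Values are log2 signals as deposited, so a difference of 1 is a doubling. The array medians ran from 3.84 to 4.23. The arrays' 40th percentiles, used as the mark of dim signals, lay between 2.74 and 2.93, and their 60th percentiles between 4.96 and 5.58. The signals of the spike-in controls bioC and bioB lay 1.39 to 1.83 apart on 18 arrays, called high-gap, and 0.16 to 0.39 apart on the other 14, called low-gap. The classes were balanced over the diets, with 3 high-gap and 2 low-gap arrays per diet at 35 dpc, likewise at 91 dpc, and 3 of each per diet at 63 dpc. Defining liver genes were bright, with the mean of 11 hepatocyte markers between 12.88 and 14.27 on all arrays. Differences were tested with limma across the 15327 probe sets, and "adjusted p" is the Benjamini-Hochberg value over them.

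SLC2A1 fell over gestation, by a small step between 35 and 63 dpc and a large one between 63 and 91 dpc. Its signal ran from 11.66 over a median of 12.36 to 12.94 at 35 dpc (n = 10), from 10.56 over 11.14 to 11.96 at 63 dpc (n = 12), and from 6.02 over 7.49 to 8.48 at 91 dpc (n = 10). The means were 12.28 ± 0.43, 11.13 ± 0.43 and 7.29 ± 0.86 (SD). Of the 12 arrays at 63 dpc, 10 lay below every array at 35 dpc, whereas all 10 arrays at 91 dpc lay below all 12 at 63 dpc. Among the probe sets of each array, SLC2A1 stood above at least 97.8% at 35 dpc and 96.1% at 63 dpc, and above 64.4% to 86.6% at 91 dpc.

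The SLC2A1 difference between 35 and 63 dpc was -1.15 ± 0.20 (SE), a 2.22-fold fall (limma adjusted p = 1.29e-05). Over this interval 60.5% of all probe sets were called in either direction and 28.0% were called lower. The difference between 63 and 91 dpc was -3.84 ± 0.20, a 14.3-fold fall (limma adjusted p = 2.63e-15). In that interval 58.5% of probe sets were called, 29.0% of the tested ones being called lower, and 6.94% had every array at 91 dpc below every array at 63 dpc. A larger difference in size between 63 and 91 dpc was found in 0.0261% of the probe sets. Over the whole span from 35 to 91 dpc SLC2A1 fell by 4.99 ± 0.21, or 31.7-fold (limma adjusted p = 2.62e-18), where 79.9% of probe sets were called. Within high-gap arrays the 2 steps were -1.20 and -3.78, and within low-gap arrays -1.15 and -3.85.

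**Figure D1:**
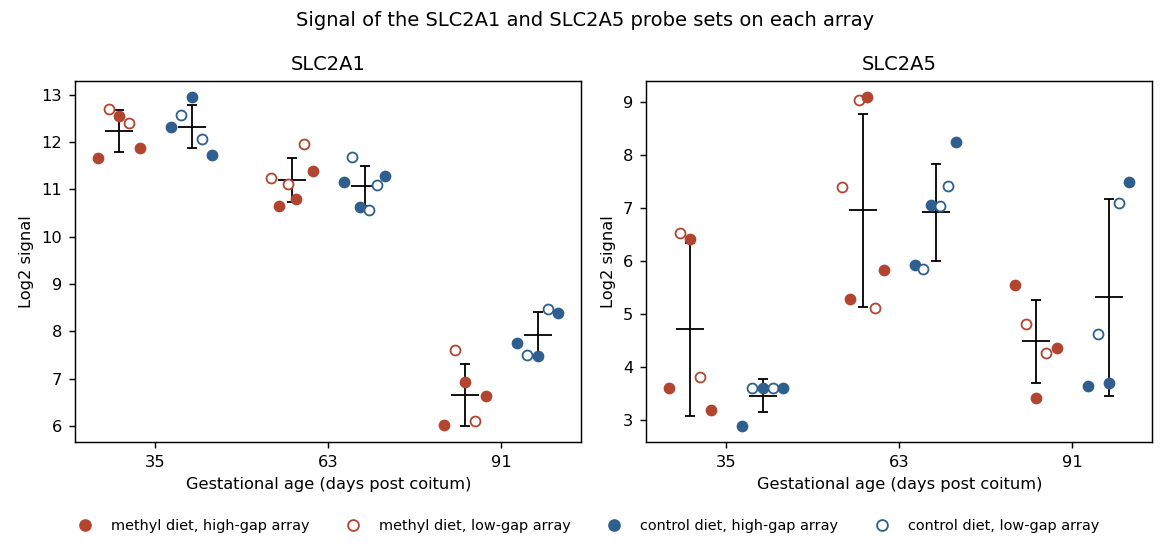
Log2 signal (vertical axis) of SLC2A1 and SLC2A5 on each of the 32 arrays by gestational age in dpc (horizontal axis), with methyl-diet arrays left and control-diet arrays right at each age; filled points are high-gap and open points low-gap arrays, and the bars give mean ± SD. SLC2A1 sits between 11.66 and 12.94 at 35 dpc and between 6.02 and 8.48 at 91 dpc, and SLC2A5 has its highest means at 63 dpc.

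SLC2A5 followed another course, low at 35 dpc, higher at 63 dpc and lower again at 91 dpc. Its signal ran from 2.90 over a median of 3.61 to 6.54 at 35 dpc (n = 10), from 5.12 over 7.05 to 9.09 at 63 dpc (n = 12), and from 3.42 over 4.50 to 7.50 at 91 dpc (n = 10). The means were 4.09 ± 1.28, 6.94 ± 1.37 and 4.90 ± 1.41 (SD). The ages overlapped: 7 of 12 arrays at 63 dpc lay above all arrays at 35 dpc, and 7 of 10 arrays at 91 dpc lay below all arrays at 63 dpc.

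The SLC2A5 difference between 35 and 63 dpc was 2.85 ± 0.54 (SE), a 7.22-fold rise (limma adjusted p = 4.72e-05), in a comparison where 32.5% of probe sets were called higher. The size of this fold rests on a dim 35 dpc group in which 5 of 10 arrays hold one identical value, and it may not measure the true ratio. The same tied values enter the pooled spread, so the standard errors and p-values of the SLC2A5 differences may be too small. A larger difference in size over that interval was found in 0.228% of the probe sets. Between 63 and 91 dpc it fell by 2.04 ± 0.54, or 4.11-fold (limma adjusted p = 0.00190). From 35 to 91 dpc its difference was 0.81 ± 0.57 (95% interval -0.34 to 1.97, limma adjusted p = 0.185), which did not pass. Within high-gap arrays the 2 steps were 3.02 and -2.20. Within low-gap arrays alone they were 2.58 and -1.77, and the second of these no longer passed (limma adjusted p = 0.108).

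Much of the SLC2A5 signal was dim at 35 and 91 dpc. On no array did it lie at or below the 40th percentile, but on 8 of 10 arrays at 35 dpc and 7 of 10 at 91 dpc it lay at or below the 60th, and on 2 of 12 at 63 dpc. At 35 dpc 5 arrays, 1 of the methyl diet and 4 of the control diet, held one value, 3.61, identical to the last decimal. Such repeated values occur in 58.2% of the tested probe sets, and how they arose is not given in the sources used here. The SD of the control diet at 35 dpc, 0.31, rests on 4 such equal values, so it is no measure of a spread between arrays. SLC2A1 had no repeated value.

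SLC2A5 also varied more between arrays of one group than nearly all other probe sets. Its pooled SD within the 6 groups of age and diet was 1.36, which 0.163% of the tested probe sets exceeded, against a median of 0.35. That of SLC2A1 was 0.49, exceeded by 22.3%. In 3 groups a pair of arrays stood highest. At 35 dpc the methyl-diet arrays read 3.61, 6.54, 6.41, 3.83 and 3.19. At 91 dpc the control-diet arrays read 3.65, 4.63, 3.71, 7.10 and 7.50. At 63 dpc the methyl-diet arrays read 7.41, 5.28, 9.04, 9.09, 5.12 and 5.83, so there 1 array lay between the pair and the rest. Each of these 3 pairs joined 1 high-gap and 1 low-gap array. The control-diet arrays at 63 dpc lay closer together, from 5.85 over 7.05 to 8.24.

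By diet, the largest SLC2A1 difference came at 91 dpc. The methyl-diet arrays read 6.02, 7.61, 6.93, 6.11 and 6.64, against 7.75, 7.51, 7.48, 8.48 and 8.39 on the control-diet arrays. Of the methyl-diet arrays 4 of 5 lay below every control-diet array, while the fifth, at 7.61, lay within their range. The means were 6.66 ± 0.65 under the methyl diet and 7.92 ± 0.48 under the control diet (SD, n = 5 each). The difference was -1.26 ± 0.29 (SE, 95% interval -1.86 to -0.66), or 2.39-fold lower, at an unadjusted p of 0.000171, and it did not pass over all probe sets (limma adjusted p = 0.132). In this comparison limma called 11 probe sets, 0.0718% of those tested, and 1000 had an unadjusted p under 0.05. In 0.600% of probe sets every methyl-diet array lay below every control-diet array. The difference was -1.34 within high-gap and -1.14 within low-gap arrays, and the limma adjusted p with the gap as a block was 0.0811. It passed without methyl 91 dpc replicate 2, the array at 7.61 (-1.50, limma adjusted p = 0.0154). It also passed with arrays weighted by their scatter around the fitted group means (-1.35, limma adjusted p = 0.0401). Without methyl 91 dpc replicate 1, the array at 6.02, it was -1.10 (limma adjusted p = 0.365), the highest p with 1 array left out. The adjusted p was 0.848 in a limma fit of the 91 dpc arrays alone and 1 on low-gap arrays alone.

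At the earlier ages SLC2A1 overlapped between the diets. At 35 dpc the methyl-diet arrays read 11.66, 12.69, 12.55, 12.40 and 11.86, against 12.31, 12.57, 12.94, 12.07 and 11.73 on the control-diet arrays. The difference was -0.09 ± 0.29 (95% interval -0.69 to 0.51). At 63 dpc the methyl-diet arrays ran from 10.65 over a median of 11.18 to 11.96 and the control-diet arrays from 10.56 over 11.13 to 11.68. The difference there was 0.13 ± 0.27 (95% interval -0.42 to 0.67). limma gave an adjusted p of 1 for both, in comparisons that called 0.0391% and 0% of the probe sets, and at 63 dpc 219 probe sets had an unadjusted p under 0.05.

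Seen along gestation, SLC2A1 had a difference between 63 and 91 dpc of -4.53 ± 0.28 under the methyl diet, a 23.1-fold fall, and of -3.14 ± 0.28 under the control diet, an 8.84-fold fall. Both passed (limma adjusted p = 7.10e-13 and 9.71e-10), where 43.7% and 45.0% of probe sets were called. The diet difference at 91 dpc minus that at 63 dpc was -1.39 ± 0.40, with an unadjusted p of 0.00152, and did not pass (limma adjusted p = 0.684, with 0% of probe sets called). The F test that the diet difference is equal at all 3 ages gave F = 6.75 for SLC2A1 (unadjusted p = 0.00378, limma adjusted p = 0.924). It called 0% of the probe sets, with 660 at an unadjusted p under 0.05. Averaged over ages, the SLC2A1 diet difference was -0.41 ± 0.16 (limma adjusted p = 0.999), again with 0% called and 685 at an unadjusted p under 0.05.

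No diet difference of SLC2A5 passed. At 35 dpc the control-diet arrays read 2.90 and 4 times 3.61, and 3 of 5 methyl-diet arrays lay above all of them. The means were 4.71 ± 1.62 under the methyl diet and 3.46 ± 0.31 under the control diet (SD, n = 5 each), a difference of 1.25 ± 0.80 (SE, 95% interval -0.39 to 2.89, limma adjusted p = 0.909). Without methyl 35 dpc replicate 2, the array at 6.54, the difference was 0.79, and without replicate 3, at 6.41, it was 0.82. At 63 dpc the means were 6.96 ± 1.82 under the methyl diet and 6.92 ± 0.91 under the control diet (SD, n = 6 each), a difference of 0.04 ± 0.73 (95% interval -1.45 to 1.54, limma adjusted p = 1). At 91 dpc the methyl-diet arrays read 5.56, 4.83, 3.42, 4.27 and 4.37, below the 2 highest control-diet arrays. The means were 4.49 ± 0.78 under the methyl diet and 5.32 ± 1.86 under the control diet, a difference of -0.83 ± 0.80 (95% interval -2.46 to 0.81, limma adjusted p = 1), with -0.28 left without control 91 dpc replicate 5, the array at 7.50, and -0.38 without replicate 4, at 7.10. At 63 dpc the interval does not exclude differences of 1 in either direction. Averaged over ages, the difference was 0.15 ± 0.45 (limma adjusted p = 0.999), and the F test gave F = 1.69 (limma adjusted p = 1).

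**Figure D2:**
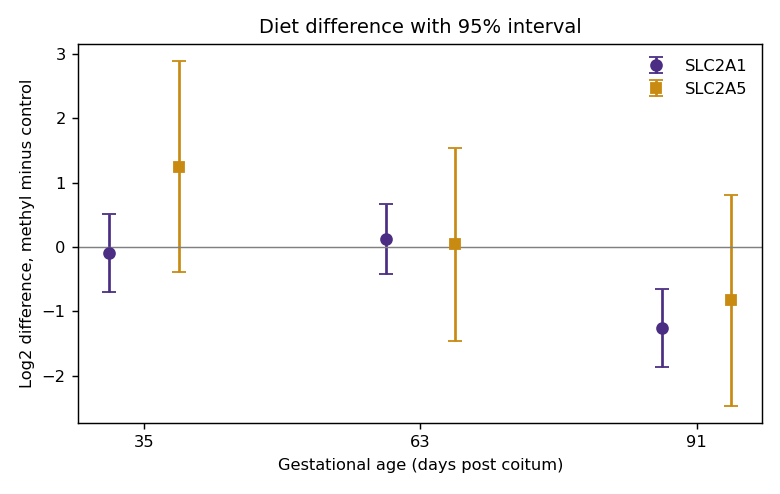
Log2 difference of the methyl minus the control diet (vertical axis) at each gestational age in dpc (horizontal axis) for SLC2A1 (circles) and SLC2A5 (squares), with 95% intervals from limma. The SLC2A1 interval at 91 dpc, from -1.86 to -0.66, lies below 0, and those of SLC2A5 are wider and include 0 at every age.

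Ordered by mean, the SLC2A1 groups were control 35 dpc at 12.33 and methyl 35 dpc at 12.23, then methyl 63 dpc at 11.19 and control 63 dpc at 11.06, then control 91 dpc at 7.92 and methyl 91 dpc at 6.66. The diets of one age were neighbours in this order and at 35 and 63 dpc differed by less than their SD. For SLC2A5 the order was methyl 63 dpc at 6.96, control 63 dpc at 6.92, control 91 dpc at 5.32, methyl 35 dpc at 4.71, methyl 91 dpc at 4.49 and control 35 dpc at 3.46. Neighbours among the first 5 of these differed by less than the larger of their SDs, and control 35 dpc, which has no usable SD, came last. Under the methyl diet SLC2A5 differed by 2.25 ± 0.77 and then by -2.47 ± 0.77 over the 2 intervals (limma adjusted p = 0.0159 and 0.0100). Under the control diet it rose by 3.46 ± 0.77 (limma adjusted p = 0.000780), and its second step of -1.60 ± 0.77 did not pass (limma adjusted p = 0.0896). The control-diet rise starts from a dim group in which 4 of 5 arrays hold one identical value, so it may not measure the true ratio. The standard errors of these steps come from a spread pooled over all groups, that group with tied values included, so they may be too small. Of all probe sets, 50.0% under the methyl and 39.5% under the control diet were called between 35 and 63 dpc. The F test above is the test of whether the diets differ in these steps, and it did not pass.

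Other hexose carriers were set beside the pair. Of 20 listed, 10 were on the array and 8 passed the filter. Between 35 and 63 dpc 1 rose and 3 fell, with a median difference of -0.26 against 0.05 over all probe sets. Between 63 and 91 dpc 0 rose and 3 fell, with a median of -0.20 against -0.03. Over all probe sets 60.5% were called in either direction in the first interval and 58.5% in the second. Counted in either direction, the carriers were called no more often than probe sets at large. Lower calls alone made up 28.0% and 29.0% of all probe sets, against 3 of 8 carriers in each interval. SLC2A8, an intracellular hexose carrier, fell in both intervals, with differences of -1.23 ± 0.17 and -1.64 ± 0.17. SLC2A3, the high-affinity glucose carrier GLUT3, fell too, with -0.56 ± 0.16 (limma adjusted p = 0.00281) and -1.84 ± 0.16. SLC50A1, the animal member of the SWEET family, fell by 1.03 ± 0.18 in the first interval, and SLC5A10, a sodium-coupled sugar carrier, had -0.36 ± 0.15 in the second (limma adjusted p = 0.0365). The liver carrier SLC2A2 was the 1 that rose, by 0.96 ± 0.34 between 35 and 63 dpc (limma adjusted p = 0.0160). It is named because of this count, after its values were seen. Its means were 6.03 ± 0.89, 6.99 ± 0.79 and 7.61 ± 0.74 (SD) over the 3 ages, and its second step of 0.62 ± 0.34 did not pass (limma adjusted p = 0.119). The glucose carriers SLC2A1, SLC2A3 and SLC2A2 thus had differences of -3.84, -1.84 and 0.62 between 63 and 91 dpc. None of the 8 passed for diet at any age, in comparisons that called 0.0391%, 0% and 0.0718% of all probe sets.

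**Figure D3:**
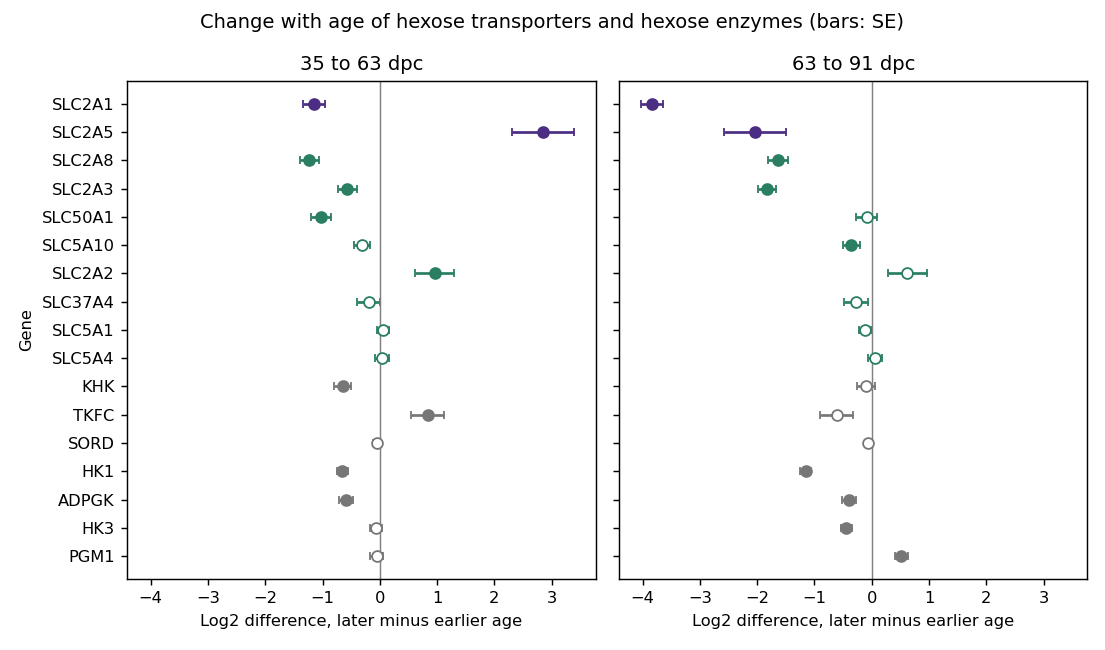
Log2 difference of the later minus the earlier age (horizontal axes) for SLC2A1, SLC2A5, the 8 other hexose carriers tested (green) and 7 hexose enzymes (grey), with bars of 1 SE; filled points passed at an adjusted p under 0.05. SLC2A5 at 2.85 lies right of all others between 35 and 63 dpc, and SLC2A1 at -3.84 lies left of all others between 63 and 91 dpc.

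Enzymes that act on the carried sugars were read too. Of the fructose and polyol enzymes, 3 of 6 listed were tested. KHK, the ketohexokinase that phosphorylates fructose, fell by 0.65 ± 0.16 between 35 and 63 dpc, with means of 3.52, 2.87 and 2.78 that lay close to the dim mark. TKFC, which phosphorylates the glyceraldehyde formed from fructose, rose by 0.83 ± 0.29 (limma adjusted p = 0.0140) and had a difference of -0.61 ± 0.29 in the second interval (limma adjusted p = 0.0689). SORD, which oxidises sorbitol to fructose, stayed bright, with means of 13.42, 13.38 and 13.32 and no difference that passed. Of the enzymes of hexose phosphorylation and release, 4 of 11 were tested. The hexokinase HK1 fell in both intervals, with differences of -0.66 ± 0.10 and -1.15 ± 0.10, as did the ADP-dependent glucokinase ADPGK, with -0.59 ± 0.12 and -0.39 ± 0.12. HK3 fell by 0.44 ± 0.10 between 63 and 91 dpc, while the phosphoglucomutase PGM1 rose by 0.52 ± 0.11 (limma adjusted p = 0.000181).

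Proteins that act on GLUT1 itself did not share one direction. TXNIP, which restrains glucose uptake through GLUT1, rose by 1.27 ± 0.13 and then by 1.07 ± 0.13. Its means were 11.19 ± 0.38, 12.46 ± 0.29 and 13.53 ± 0.21 (SD) at 35, 63 and 91 dpc. Each age lay wholly above the one before, as in 3.61% and 6.11% of all probe sets. DMTN, the red cell membrane protein dematin, fell, with differences of -1.19 ± 0.14 and -1.83 ± 0.14. VPS26A, a part of the retromer that returns GLUT1 to the cell surface, rose by 0.95 ± 0.26 and then by 1.40 ± 0.26. GIPC1, a scaffold that binds GLUT1, fell by 0.32 ± 0.14 in the first interval (limma adjusted p = 0.0432). The list thus had 2 rises and 2 falls among 4, then 2 rises and 1 fall, beside 60.5% and 58.5% of all probe sets called.

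SLC2A1 is a known target of the hypoxia-inducible factors, and 9 of 17 other listed targets were tested. Between 35 and 63 dpc 1 rose and 5 fell (median -0.34), and between 63 and 91 dpc 1 rose and 3 fell (median -0.17). Over all probe sets the medians were 0.05 and -0.03, and 60.5% and 58.5% were called in either direction. Counted in either direction, the targets were called about as often as probe sets at large or less. Lower calls alone made up 28.0% and 29.0% of all probe sets, against 5 and 3 of the 9 targets. LDHA, a lactate dehydrogenase subunit, fell in both intervals, with differences of -0.66 ± 0.10 and -0.62 ± 0.10, and so did the glycolytic kinase PGK1, with -0.39 ± 0.08 and -0.54 ± 0.08. The glycolytic enzyme ENO1 also fell in both, and the lactate exporter SLC16A3 in the first, both named after their values were seen. EPO, which encodes erythropoietin, fell by 2.66 ± 0.28 in the first interval, and its second difference of -0.50 ± 0.28 did not pass (limma adjusted p = 0.125). VEGFA, the vascular growth factor, rose by 0.75 ± 0.14 and then by 0.40 ± 0.14. None of the 9 had a difference between 63 and 91 dpc as large as that of SLC2A1.

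Markers of red cell precursors mostly fell with SLC2A1 across ages, and which cells carried its RNA was not tested. Of 26 listed erythroid markers 13 were tested. Between 35 and 63 dpc 1 rose and 8 fell (median -0.57), and between 63 and 91 dpc 1 rose and 11 fell (median -1.52). Over all probe sets 28.0% and 29.0% were called lower, 60.5% and 58.5% were called in either direction, and the medians were 0.05 and -0.03. The riser in both intervals was the beta globin gene HBB, with 1.34 ± 0.24 and 0.68 ± 0.24, named after its values were seen. The mean over the 13 genes was 11.01 (10.72 to 11.36) at 35 dpc, 10.59 (10.38 to 10.85) at 63 dpc and 9.02 (8.39 to 9.61) at 91 dpc. ALAS2, the red cell enzyme of heme synthesis, had means of 14.20, 13.57 and 11.79, and the erythroid transcription factor KLF1 had 12.03, 10.76 and 8.53. HBE1, an embryonic globin, had 9.26, 7.70 and 3.62, the last close to the dim mark. In bulk RNA, fewer cells of a type and less RNA per cell cannot be told apart. Fitted beside the erythroid mean, the SLC2A1 difference between 63 and 91 dpc was -3.70 ± 0.53 (limma adjusted p = 0.000133). The SLC2A5 difference was -0.34 ± 1.42 in the same fit (limma adjusted p = 0.887), against a standard error of 0.54 without the covariate. The group means are in this fit, so its slope on the erythroid mean rests on the scatter within groups. It therefore cannot separate age from the erythroid mean. The part of the erythroid fall in either difference was not tested.

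At 91 dpc the erythroid mean did not separate the diets, at 9.03 ± 0.53 under the methyl diet and 9.02 ± 0.39 under the control diet (SD, n = 5 each). With that mean in the fit the SLC2A1 diet difference at 91 dpc was -1.26 ± 0.30 (limma adjusted p = 0.101). Within groups SLC2A1 hardly followed the erythroid mean, so this fit could change the difference little. The part of red cell content in the diet difference was not tested. Of the methyl-diet arrays at 91 dpc, that with the highest erythroid mean, 9.58, had the lowest SLC2A1 signal, 6.02, and that with the lowest, 8.39, had the highest SLC2A1 signal, 7.61. On the control-diet arrays the highest erythroid mean, 9.61, came with the highest SLC2A1 signal, 8.48. Over the 32 arrays the correlation of SLC2A1 with the erythroid mean was 0.92, and after subtracting the mean of each group it was 0.05. The points share arrays and fall into clusters by age, and the first value holds the difference between ages.

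**Figure D4:**
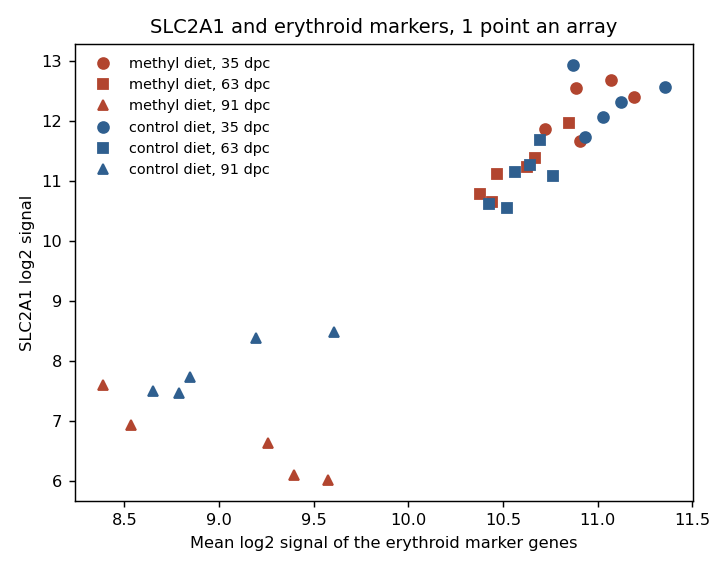
SLC2A1 log2 signal (vertical axis) against the mean log2 signal of 13 erythroid marker genes (horizontal axis), 1 point an array, with red for the methyl and blue for the control diet and the shape for age. The arrays at 91 dpc lie apart from the others at erythroid means of 8.39 to 9.61, where 4 of 5 methyl-diet arrays lie below every control-diet array.

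Markers of other cells that could carry these genes were measured too. In the 2 intervals 60.5% and 58.5% of all probe sets were called in either direction, and several of the counts lie near those shares. By direction, 32.5% were called higher and 28.0% lower in the first interval. In the second, 4523 of 15327 were called higher and 29.0% lower. Macrophage markers had 1 rise and 1 fall among 8 between 35 and 63 dpc, and 5 rises and 1 fall between 63 and 91 dpc, where CD14, a receptor for bacterial lipopolysaccharide, differed by 2.49 ± 0.31. Of the 11 hepatocyte markers 6 rose and 0 fell in the first interval, and 3 rose and 3 fell in the second. All 6 neutrophil markers rose between 35 and 63 dpc and fell between 63 and 91 dpc (medians 0.96 and -1.56), the same order of directions as SLC2A5, with the neutrophil lactoferrin gene LTF at 1.15 ± 0.17 and then -0.99 ± 0.17. The mean of the 6 was 7.90, 8.79 and 7.24 over the ages. Their part in the SLC2A5 differences was not tested. Of the intestinal and kidney epithelial markers 2 of 16 passed the filter, VIL1, the microvillus protein villin, with differences of 0.61 and 0.48, and the intestinal cadherin CDH17 with -0.60 and 0.61. Neither followed the course of SLC2A5. Megakaryocyte markers had 1 rise among 2 and then 2 falls, endothelial markers 3 rises among 6 and then 2 rises and 1 fall, and biliary markers 1 rise and 2 falls among 3 and then 2 rises. In none of the lists did a gene pass for diet at any age. The diet comparisons called only 0.0391%, 0% and 0.0718% of all probe sets at 35, 63 and 91 dpc. Lists of this size would therefore seldom hold a call.

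The genes most like each carrier were looked for among the 7624 other tested probe sets with 1 symbol, by Pearson correlation over the 32 arrays. For SLC2A1 they were UXS1, which makes UDP-xylose (0.97), ABTB1 (0.97), POLE3, a subunit of DNA polymerase epsilon (0.97), AURKA, a mitotic kinase (0.96), and ADIPOR1, an adiponectin receptor (0.96). Their differences between 63 and 91 dpc ran from -2.16 to -1.22, smaller in size than that of SLC2A1. The diet differences of these genes at 91 dpc, in the order named, were -0.60, -0.32, -0.14, -0.41 and -0.24, and none passed. The largest in size, that of UXS1, was -0.60 ± 0.22 (limma adjusted p = 0.498). These genes were picked by correlation over the same arrays, so directions shared with SLC2A1 follow largely from the choice. After subtracting group means, the correlation was highest for PRR13 (0.71), ABLIM1 (0.68), IDH3B, a subunit of mitochondrial isocitrate dehydrogenase (0.63), EIF3L (0.61) and the retinol carrier RBP4 (0.61). No gene was in both lists. Over the 7624 probe sets the median was 0.32 before and 0.06 after the subtraction, and the 99th percentile was 0.93 and 0.47. The named genes are the highest of 7624, so high values among them follow in part from the choice.

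For SLC2A5 the most similar genes were SCD, the stearoyl-CoA desaturase that makes oleate (0.79), PNPLA3, a lipid droplet protein (0.77), EPHX2, the soluble epoxide hydrolase (0.76), HSD17B2, which inactivates sex steroids (0.74), and ACBD6, an acyl-CoA binding protein (0.72). All 5 rose between 35 and 63 dpc and fell between 63 and 91 dpc, in smaller steps than SLC2A5. They were picked by correlation over these same arrays, so the shared directions follow largely from the choice. SCD rose by 0.74 and fell by 0.47, with means of 12.57, 13.31 and 12.84, and PNPLA3 rose by 0.99 and fell by 0.53. After subtracting group means SCD was again first (0.68), followed by ACAA2, a thiolase of fatty acid oxidation (0.63), SMARCE1 (0.62), PSP-I (0.61) and MFAP1 (0.60). PSP-I lay close to the dim mark, with means of 3.37, 3.49 and 3.12 over the ages. Over the 7624 probe sets the median was 0.02 before and 0.05 after the subtraction, and the 99th percentile was 0.55 and 0.49. These genes too are the highest of 7624, so high values among them follow in part from the choice. SLC2A1 and SLC2A5 had a correlation of 0.08 over the arrays and of 0.17 after the subtraction. All these correlations describe the same 32 arrays, so the genes of each array share its RNA and processing.

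**Figure D5:**
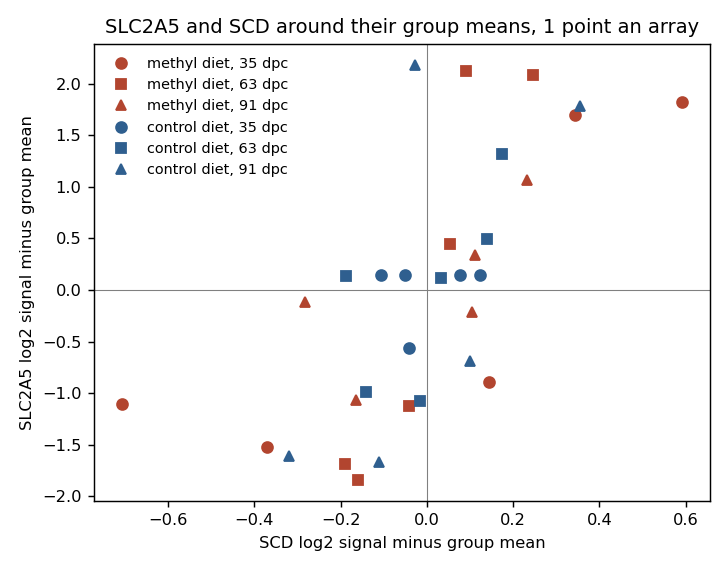
SLC2A5 log2 signal minus its group mean (vertical axis) against that of SCD (horizontal axis), 1 point an array, with red for the methyl and blue for the control diet and the shape for age. Arrays with SLC2A5 above its group mean mostly have SCD above its mean too, with a correlation of 0.68 over the 32 arrays. SCD is shown because its correlation with SLC2A5 was the highest.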

How the data were processed

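Fetal liver RNA of 32 samples was hybridised to porcine arrays, 1 per sample. The deposited values are log2 signals, 1 per probe set and array, from 2.20 to 16.6. The submitters' processing notes name GCOS 1.1.1 but not its role, and the normalization is not given in the sources used here. Values were used as deposited. Of 24123 probe sets 124 controls were set aside, and 15327 of the other 23999 lay above the array's 40th percentile in at least 5 arrays. Symbols came from the array annotation, where 10099 probe sets had 1 symbol, 198 several and 13826 none. The gene ID it gives SLC2A1 differs from that of the current RefSeq gene, so that name rests on the symbol alone.

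limma 3.58.1 (R 4.3.3) fitted 6 group means with an intensity trend, 26 residual degrees of freedom. A call is a Benjamini-Hochberg adjusted p below 0.05. Listed genes were read by their brightest tested probe set, and up to 4 a list were named, by the F test over the groups. The 5 likest genes were named for each carrier and measure. The fit was tested on simulated data. Figures used matplotlib 3.10.9. Alternatives changed the trend, prior, filter, normalization, weights, block, covariate and arrays. Members, lists and alternatives, the split of the spike-in gap at 1.2 included, were chosen with earlier results of these data known.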

Additional observations from a re-analysis of the deposited data

Results flagged for a closer look

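Of the 12 groups of SLC2A1 and SLC2A5 values, 1 had an array that stood apart by Dixon's test at the 95% level, and chance gives about 1 in 20. It was SLC2A5 under the control diet at 35 dpc, where control replicate 1 read 2.90 and the other 4 arrays shared the value 3.61. The gap of the lowest array made up the whole range, a ratio of 1. Since the other 4 values are identical to the last decimal, any differing array would stand apart in this way.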

How the results depend on the processing

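The settings changed 1 choice at a time: trend, prior, filter, normalization, array weights, gap block, gap class, erythroid covariate, arrays fitted, and each array left out. Over the settings other than single arrays, the SLC2A1 age differences kept their direction and call, at -1.21 to -1.11 between 35 and 63 dpc and -3.92 to -3.70 between 63 and 91 dpc. So did the SLC2A5 rise to 63 dpc, at 2.58 to 3.31. The SLC2A5 difference between 63 and 91 dpc did not pass on low-gap arrays alone (-1.77, limma adjusted p = 0.108) or with the erythroid covariate (-0.34, limma adjusted p = 0.887). With single arrays left out, it ran from -2.31 to -1.83 and always passed. The slope on the erythroid covariate rests on scatter within groups, so that setting cannot separate age from the erythroid mean. The SLC2A1 diet difference at 91 dpc passed with array weights (-1.35, limma adjusted p = 0.0401), and with single arrays left out it ran from -1.50 to -1.10. Uncalled diet differences changed sign in these settings, and with some single arrays left out: SLC2A1 at 35 dpc with array weights (0.21) and on low-gap arrays (0.22), SLC2A1 at 63 dpc on high-gap arrays (-0.075), and SLC2A5 at 63 dpc with quantile normalization (-0.016) and on high-gap arrays (-0.34). With single arrays left out these 3 differences ran from -0.24 to 0.060, from -0.027 to 0.25 and from -0.38 to 0.41.

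Over all probe sets, limma called 4798 between 35 and 63 dpc on low-gap arrays (9278 on all), 5260 between 63 and 91 dpc on low-gap arrays and 3134 with the erythroid covariate (8963), and 7123 between 35 and 91 dpc with that covariate (12250). The low-gap fit holds fewer arrays. For diet at 35 dpc the count of 6 became 18 without a filter, 13 on high-gap arrays, and 0 with the stricter filter, on low-gap arrays and with that age alone, and 4 to 13 with single arrays left out, 13 without control 35 dpc replicate 4. For diet at 91 dpc the count of 11 became 2 with the stricter filter, 37 with array weights, 41 on high-gap arrays, 4 on low-gap arrays and 0 with that age alone, and 1 (without methyl 91 dpc replicate 1) to 43 (without methyl 91 dpc replicate 2) with single arrays left out. The count of 0 for the diet difference between ages became 4 with array weights, 6 on high-gap and 2 on low-gap arrays, and 0 to 7 (without control 35 dpc replicate 4) with single arrays left out, and that of 0 for the mean over ages became 0 to 1. The cause of these changes was not tested. No paired analysis was possible because the labels give running sample numbers, so the groups share no replicate numbers. For SLC2A5 signals below the 60th percentile limit what can be resolved.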
